A study of Mus musculus with 6 samples.

Results

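The Hrc to Plekha4 neighbourhood is a stretch of mouse chromosome 7 in which genes of unrelated function lie side by side, and 10 of them are described here in gene order: Ppfia3, Lin7b, Ntf5, Lhb, Gys1, Ftl1, Dhdh, Tulp2, Nucb1 and Plekha4. The 10 genes were picked out of 19938 measured genes with their Aire KO against Aire WT difference already known, so that difference is given below as a description, with no test. Each gene is represented by its probe set that carries a single gene symbol, and values are log2 intensities. The RefSeq annotation lists 17 genes from Hrc to Plekha4. Of these, 16 had such a probe set, Bax being the exception.

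Expression was measured on 6 arrays, 1 per mouse: 3 mice carried the label Aire KO and 3 the label Aire WT. All 6 mice were 4 to 6 weeks old and (B6xNOD)F1, a cross of the C57BL/6 and NOD strains. From each thymus, CD45-, Ly51-intermediate, MHC class II high medullary epithelial cells (MECs) were sorted by FACS, and their RNA was amplified in 2 rounds before hybridisation. The deleted part of Aire is not given in the sources used here, nor is any batch.

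Medullary epithelial cells present fragments of proteins that are otherwise made in peripheral organs, and thymocytes that react to them are removed. Aire, a nuclear regulator of transcription, promotes the expression of many tissue-restricted genes there. Genes affected by Aire are known to lie in clusters along chromosomes. The neighbourhood holds genes best known from synapses (Ppfia3, Lin7b), the nervous system (Ntf5), the pituitary (Lhb) and the testis (Tulp2), next to widely used genes of glycogen synthesis (Gys1), iron storage (Ftl1) and the secretory pathway (Nucb1).

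Aire itself does not check the genotype labels here. Its probe set read 12.38, 12.41 and 12.42 on the KO-labelled arrays, against 12.00, 11.92 and 11.99 on the WT-labelled arrays, a difference of 0.44 (SE 0.08, limma adjusted p = 0.0017). The signal was higher in the KO-labelled mice, and the position of its probes relative to the deletion is not known here. KO and WT below therefore mean the libraries labelled so. Array medians ran from 92.9 to 98.2 on the linear scale.

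Markers of other cell types were compared as lists, since the members are measured in bulk RNA, in which fewer cells of a type and less RNA per cell cannot be told apart. Of 11 measured medullary epithelial markers, Aire and Cd86 were higher in KO and Epcam, Krt5 and Krt14 lower. The summed intensity of the list ran from 46014 to 47972 in KO and from 43126 to 43611 in WT. Its brightest gene was H2-Aa, with a log2 mean of 13.63 in KO and 13.43 in WT, which was not called. The pan-leukocyte gene Ptprc, which encodes the CD45 used to sort cells out, was lower in KO by 0.62 on the log2 scale, at 71.4 to 106 intensity units in KO against 115 to 180 in WT. Of 3 tested B cell markers all 3 (Cd79b, Pax5, Cr2) were higher in KO. The 2 dim ones, Cd79a and Ms4a1, went the other way, at -0.11 and -0.48, and for Ms4a1 every KO array was below every WT array. The 5 measured markers summed to 1085 to 1286 in KO against 747 to 820 in WT. The brightest of them was Cr2, with a log2 mean of 9.45 in KO and 8.42 in WT. Of 9 tested T cell markers 1 was lower (Cd3g) and 0 were higher, with 12 measured markers summing to 888 to 1162 in KO and 1164 to 1939 in WT. Of 6 tested dendritic cell and macrophage markers 1 was higher (Cd68) and 3 lower (Itgam, Adgre1, Csf1r). The list summed to 3288 to 3396 in KO and 3430 to 3761 in WT, and its brightest gene, Lyz2, was not called, at -0.06. Itgam and Adgre1 lay under the filter for dim genes on all 3 KO arrays, so they were tested through the WT group alone. For cortical epithelium the 8 measured markers summed to 6389 to 6707 in KO and 5794 to 6569 in WT, with Prss16 and Ccl25 higher, Ctsl lower, and Psmb11 and Cxcl12 dim. Of 6 tested fibroblast and pericyte markers Dcn was higher (0.75) and Col1a1 lower (-0.63), and the 7 measured ones summed to 1873 to 2340 in KO and 1629 to 1878 in WT. For endothelium 0 of 3 tested markers passed in either direction, with sums over 5 measured markers of 304 to 331 in KO and 311 to 350 in WT, and the 1 measured red cell marker read 177 to 256 in KO and 174 to 198 in WT and did not pass. No array value is 0, so dim markers have no true zero. Over all tested genes, 12.0% were called higher and 14.1% lower. The part of these markers in the differences below was not tested.

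The members share a direction, but in the contrast that chose them, so the sequences upstream of 4 members are shown as a description. The 4 are a hormone gene (Lhb), the member with the largest difference (Tulp2), and Gys1 and Plekha4. The start of each of the last 2 faces that of a tested neighbour on the other strand (Gys1 with Ruvbl2, Plekha4 with Ppp1r15a). Ppfia3 also faces a neighbour, the dim gene Mtag2, with an annotated start 214 bases away. Another annotated Mtag2 start lies inside the range of Ppfia3, 858 bases from the Ppfia3 start. The printed sequences are the 250 bases before a start of each of the 4 genes in RefSeq, assembly GRCm38.p6, on the plus strand, written 5′ to 3′. Capitals mark motifs on either strand: the TATA box TATAAA, the CCAAT box, the GC box GGGCGG and the core of the cAMP response element, TGACG. The windows are chr7:45420696-45420945 for Lhb, chr7:45434589-45434838 for Gys1, chr7:45486012-45486261 for Tulp2 and chr7:45526080-45526329 for Plekha4.
Lhb: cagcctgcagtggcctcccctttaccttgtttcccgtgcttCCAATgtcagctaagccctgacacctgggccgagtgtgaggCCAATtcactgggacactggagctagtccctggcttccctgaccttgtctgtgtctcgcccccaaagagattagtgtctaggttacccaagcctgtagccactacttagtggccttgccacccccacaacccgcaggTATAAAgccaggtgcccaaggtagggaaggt
Gys1: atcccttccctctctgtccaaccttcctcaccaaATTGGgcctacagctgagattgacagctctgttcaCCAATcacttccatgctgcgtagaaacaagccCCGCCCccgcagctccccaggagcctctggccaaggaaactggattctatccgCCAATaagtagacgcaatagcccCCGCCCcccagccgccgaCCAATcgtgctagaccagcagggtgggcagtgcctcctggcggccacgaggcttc
Tulp2: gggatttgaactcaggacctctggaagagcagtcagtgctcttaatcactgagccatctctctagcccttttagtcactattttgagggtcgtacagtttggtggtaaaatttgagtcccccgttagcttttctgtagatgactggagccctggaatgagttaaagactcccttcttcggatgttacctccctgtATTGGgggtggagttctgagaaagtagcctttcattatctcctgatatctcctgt
Plekha4: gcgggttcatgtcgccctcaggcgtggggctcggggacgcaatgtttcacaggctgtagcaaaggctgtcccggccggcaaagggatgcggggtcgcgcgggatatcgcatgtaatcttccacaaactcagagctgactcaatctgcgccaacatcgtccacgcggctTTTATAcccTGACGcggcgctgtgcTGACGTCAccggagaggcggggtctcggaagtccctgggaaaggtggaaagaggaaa

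The printed windows differed in the motifs they held. Lhb has TATAAA 31 bases before its start and CCAAT at 209 and 168 bases. Gys1 has no TATAAA and carries 4 CCAAT and 2 GGGCGG, and its start lies 375 bases from that of Ruvbl2, which is read the other way. Tulp2 has a single CCAAT on the opposite strand, at 55 bases, and a GC content of 46.0%, the lowest among the members. Plekha4 starts 62 bases from Ppp1r15a, with TATAAA on the opposite strand at 82 bases and 3 TGACG between 73 and 54 bases, 2 of which overlap as TGACGTCA. Tulp2 and Plekha4 each have another annotated start, not printed, whose window holds other motifs: 2 TATAAA and 1 CCAAT for Tulp2, and 2 CCAAT and 1 GGGCGG for Plekha4.

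RefSeq windows were matched for 8 of the 10 members, 10 windows in all, and not for Ntf5 and Dhdh. CCAAT was found in 8 of the 10 windows, against 33.8% of all 32851 windows of this length. GGGCGG was in 6 (32.7% of all), TATAAA in 3 (12.4%), TGACG in 2 (17.8%) and CACGTG in 0 (6.02%). GC content ran from 46.0% to 67.6%, with a median of 60% against 52.4% over all windows. No motif was held by all the members, and a match or its absence describes these letters alone.

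All 10 members had signal above the filter for dim genes on all 6 arrays, and for each of them the lowest KO array lay above the highest WT array. Such a separation was seen in 22.0% of all 13925 tested genes. In the limma fit over all tested genes the 10 members fall among those called higher at an adjusted p of 0.05, a call made for 12.0% of tested genes in this direction and for 26.1% in either. Because the members were chosen from this contrast, nothing is read from either count. The median difference, KO minus WT, was 0.38 on the log2 scale, in a range from 0.25 to 0.93, and the median of all tested genes was 0.02. In linear terms KO intensities were 1.19 to 1.90 times the WT ones.

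**Figure D1:**
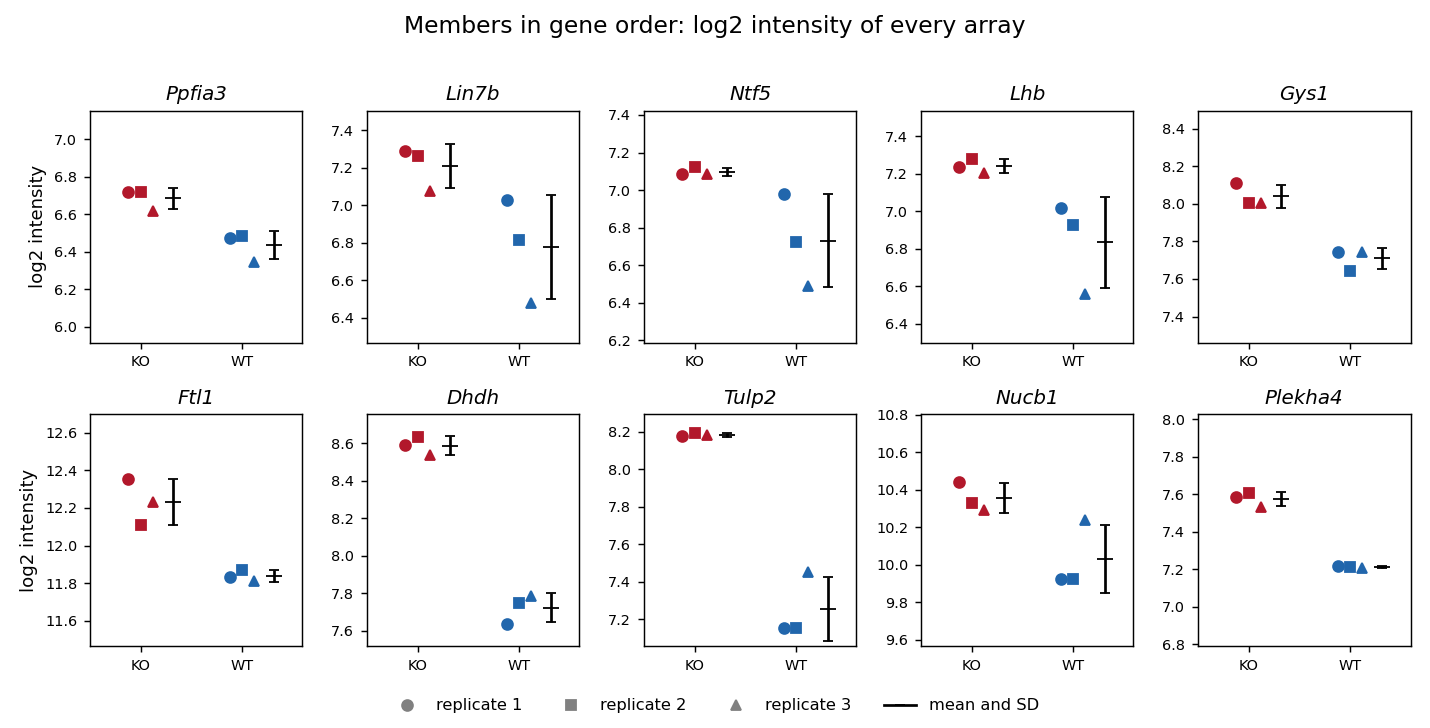
Log2 intensity (vertical axes, each panel on its own range) of the 10 members on the 3 KO and 3 WT arrays, with marker shape giving the replicate and bars the mean and SD. In every panel the 3 KO points lie above the 3 WT points, by the widest gap for Dhdh (0.75) and Tulp2 (0.72) and the narrowest for Lin7b (0.05) and Nucb1 (0.05).

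Ppfia3 encodes liprin-alpha 3, a scaffold protein of presynaptic release sites. It read 6.72, 6.72 and 6.62 in KO and 6.47, 6.48 and 6.35 in WT. The 2 groups were narrow and close together, with replicate 3 the lowest of each. The difference of 0.25 (SE 0.08) was the smallest of the 10, and the limma call was lost whichever array was left out.

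Lin7b encodes a PDZ-domain protein that holds receptors and channels at cell junctions and synapses. Its values were 7.29, 7.26 and 7.08 in KO and 7.03, 6.81 and 6.48 in WT. WT replicate 3 was far below the other WT arrays, while WT replicate 1 came within 0.05 of the lowest KO array. The difference was 0.43 (SE 0.13), and it ran from 0.29 to 0.56 when single arrays were left out. The call did not hold without KO replicate 1, KO replicate 2 or WT replicate 3.

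Ntf5 encodes neurotrophin 4/5, a secreted ligand of the TrkB receptor. KO arrays read 7.09, 7.12 and 7.08, and WT arrays 6.98, 6.72 and 6.49. The KO mice were tightly grouped, with an SD of 0.02, and the WT mice were spread over a wider span, with an SD of 0.25. The difference was 0.37 (SE 0.11). It moved between 0.25 and 0.49 when single arrays were left out, and the call held only without WT replicate 1.

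Lhb encodes the beta subunit of luteinizing hormone, whose known source is the anterior pituitary. Its window with the TATAAA is printed above. Lhb read 7.24, 7.28 and 7.20 in KO and 7.02, 6.93 and 6.56 in WT. As with Lin7b and Ntf5, WT replicate 3 was the lowest array and WT replicate 1 the nearest to KO. The difference was 0.41 (SE 0.11), a fold of 1.32, and the call was lost without any 1 of the 3 KO arrays, where the difference itself stayed between 0.27 and 0.50 over all 6 omissions.

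Gys1 encodes the glycogen synthase of muscle and most other tissues. Its values were 8.11, 8.01 and 8.01 in KO and 7.74, 7.65 and 7.74 in WT. Both groups were compact, with SDs of 0.06 in each, and 0.26 separated the lowest KO array from the highest WT array. The difference was 0.33 (SE 0.08), and the call was lost only without KO replicate 1.

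Ftl1 encodes the light chain of ferritin, the cell's iron store, and had the highest signal of the members. It read 12.35, 12.11 and 12.23 in KO and 11.83, 11.87 and 11.81 in WT. Here the KO arrays were the more spread, with SDs of 0.12 in KO and 0.03 in WT. The difference was 0.39 (SE 0.09), with a range of 0.33 to 0.46 when single arrays were left out.

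The Ftl1 value is uncertain as a measure of this locus. In the order of probe set numbers, the neighbours of the other 9 members all belong to genes of chromosome 7, but 38 of the 43 neighbours of the Ftl1 probe set belong to chromosome 17. A further 4 probe sets list Ftl1 together with the microRNA genes Mir692-2 and Mir692-3. Ferritin light chain has near-identical copies in the mouse genome, and signal from the copies cannot be told apart here. Among those 4, the one whose 47 neighbours all belong to chromosome 7 read 12.87, 12.67 and 12.73 in KO and 12.36, 12.37 and 12.27 in WT. Its difference was 0.42, and the differences of the other 3 were 0.41, 0.48 and 0.43, with KO above WT on every array.

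Dhdh encodes dihydrodiol dehydrogenase, an oxidoreductase that acts on dihydrodiols and sugars. It read 8.59, 8.63 and 8.54 in KO and 7.64, 7.75 and 7.78 in WT. The groups were far apart for their spread, with SDs of 0.05 in KO and 0.08 in WT and a gap of 0.75. The difference was 0.86 (SE 0.08), a fold of 1.82, and it stayed between 0.82 and 0.89 whichever array was left out.

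Tulp2 encodes tubby-like protein 2, known for its expression in testis. Its values were 8.18, 8.19 and 8.18 in KO and 7.16, 7.16 and 7.45 in WT. The KO mice were nearly identical (SD 0.01), and WT replicate 3 was the highest WT array, the opposite of its place for Lin7b, Ntf5 and Lhb. The difference of 0.93 (SE 0.10), a fold of 1.90, was the largest of the 10. Counting Tulp2 itself, 85 of the tested genes, 0.610%, had one at least as large. For Ppfia3, the member with the smallest difference, 2092 did (15.0%). Both ranks come from the contrast that chose the members, so nothing is read from them. Without WT replicate 3 the Tulp2 difference was 1.03. The annotated range of Tulp2 overlaps those of Dhdh and Ppp1r15a and contains that of Nucb1. The range of Gys1 overlaps that of Ruvbl2, and the range of Mtag2 those of Ppfia3 and Lin7b. The array's probe positions were not used here, so signal shared within these pairs was not tested.

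Nucb1 encodes nucleobindin 1, a calcium-binding protein of the Golgi. KO arrays read 10.44, 10.33 and 10.29, and WT arrays 9.93, 9.92 and 10.24. WT replicate 3 came within 0.05 of the lowest KO array, while the other 2 WT arrays were well below. The difference was 0.33 (SE 0.10). It was 0.43 without WT replicate 3, the only omission under which the call held.

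Plekha4 encodes a pleckstrin homology domain protein that binds phosphoinositides at the plasma membrane. It read 7.59, 7.61 and 7.53 in KO and 7.22, 7.21 and 7.21 in WT. The WT mice differed by almost nothing, with an SD of 0.01, and the KO mice by an SD of 0.04. The difference was 0.36 (SE 0.08), and it ran from 0.35 to 0.39 when single arrays were left out.

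Of the 10 members, Ftl1, Dhdh, Tulp2 and Plekha4 kept the call in all 6 fits with 5 arrays, Gys1 in 5, Lin7b and Lhb in 3, Ntf5 and Nucb1 in 1 and Ppfia3 in 0. Leaving out KO replicates 1, 2 and 3 in turn left 4, 5 and 6 members called, and leaving out the WT ones in the same order left 8, 7 and 7. The median difference of the members ran from 0.36 to 0.44 in these fits. Since the calls come from the contrast that chose the members, they show how far each value rests on single arrays and are no test of the members.

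Dhdh and Tulp2, next to each other in gene order, stood above the rest: their differences of 0.86 and 0.93 compare with 0.25 to 0.43 for the other 8 members. Mean intensities in KO were 6.68 for Ppfia3, the dimmest, and 12.23 for Ftl1, the brightest, and a probe set's brightness depends on its probes as well as on its RNA.

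**Figure D2:**
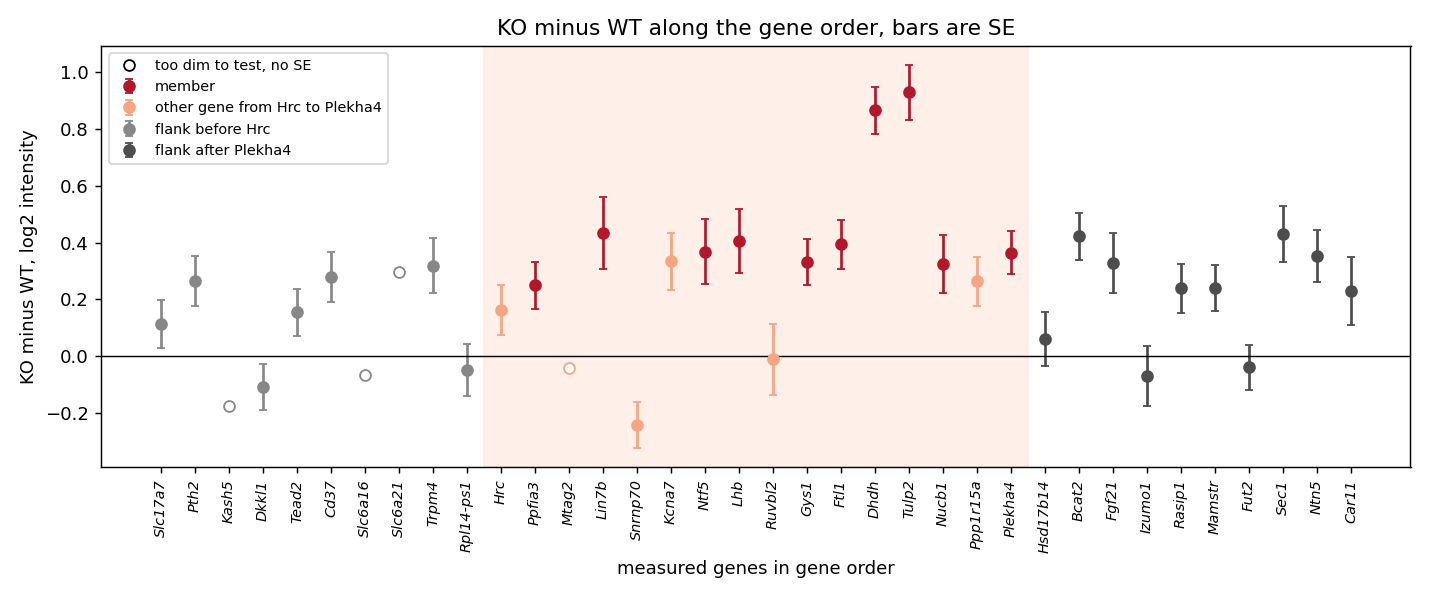
KO minus WT difference in log2 intensity (vertical axis) of each measured gene in gene order (horizontal axis, equal spacing, not distance), from the 10 measured genes before Hrc to the 10 after Plekha4, with SE bars. Members are dark red, the other measured genes of the stretch orange, flanks grey, and open circles are genes too dim to test. Dhdh and Tulp2 stand at 0.86 and 0.93, and Snrnp70 inside the stretch lies at -0.24.

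The 6 other measured genes of the stretch did not all share the direction. Their median difference was 0.08. Kcna7, a voltage-gated potassium channel gene, was higher by 0.33 (SE 0.10), and Ppp1r15a, a stress-induced phosphatase subunit gene whose start faces that of Plekha4, by 0.26 (SE 0.09). Snrnp70, which encodes a protein of the U1 spliceosomal particle and lies between Lin7b and Kcna7, read 9.46, 9.40 and 9.55 in KO and 9.75, 9.70 and 9.69 in WT, a difference of -0.24 (SE 0.08). All 3 KO arrays were below all 3 WT arrays for this gene, as in 20.5% of tested genes. By limma, 2 of these 5 tested genes were called higher and 1 lower, against 12.0% and 14.1% of all tested genes. With single arrays left out, Kcna7 kept its call in 2 of 6 fits, Ppp1r15a in 1 and Snrnp70 in 0. Snrnp70 was also not called with arrays centred on the median, with no filter or with the replicate block.

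Hrc, the histidine-rich calcium-binding protein gene at the start of the stretch, read 6.16, 6.13 and 6.04 in KO and 5.84, 5.97 and 6.05 in WT. Its groups overlapped, and the difference was 0.16 (SE 0.09). Ruvbl2, an ATPase gene whose start faces that of Gys1, read 8.98, 8.99 and 9.13 in KO and 9.28, 9.12 and 8.75 in WT. Its groups overlapped as well, with a difference of -0.01 (SE 0.12) beside 0.33 for Gys1. Mtag2 was too dim to test, at -0.04. Over all 16 measured genes of the stretch the median was 0.33.

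The genes outside the stretch were not flat either. For comparison, 12.0% of all tested genes were called higher and 14.1% lower. Before Hrc, 3 of 7 tested genes were called higher and 0 lower: Pth2 (0.27), Cd37 (0.28) and Trpm4 (0.32), with a median of 0.13 over 10 measured genes. The nearest of them to Hrc, Rpl14-ps1, was at -0.05. After Plekha4, 5 of 10 tested genes were called higher and 0 lower: Bcat2 (0.42), Fgf21 (0.33), Mamstr (0.24), Sec1 (0.43) and Ntn5 (0.35), with a median of 0.24. The gene next to Plekha4, Hsd17b14, was at 0.06 and was not called. With single arrays left out, Bcat2 and Sec1 kept the call in 6 of 6 fits, Ntn5 in 5, Fgf21 and Trpm4 in 2, Pth2 and Cd37 in 1 and Mamstr in 0. The borders of the stretch were drawn with these values known, so no test of members against flanks is given.

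The spread between mice differed by member and by group. The median SD of the members was 0.05 in KO and 0.12 in WT, and over all tested genes it was 0.09 in KO and 0.11 in WT. For 7 of the 10 members the WT SD was the larger. WT replicate 3 was the lowest WT array for 6 members and the highest for 4, and KO replicate 3 was the lowest KO array for 7. Along the gene order, WT replicate 3 was low from Ppfia3 to Lhb and high for Dhdh, Tulp2 and Nucb1.

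**Figure D3:**
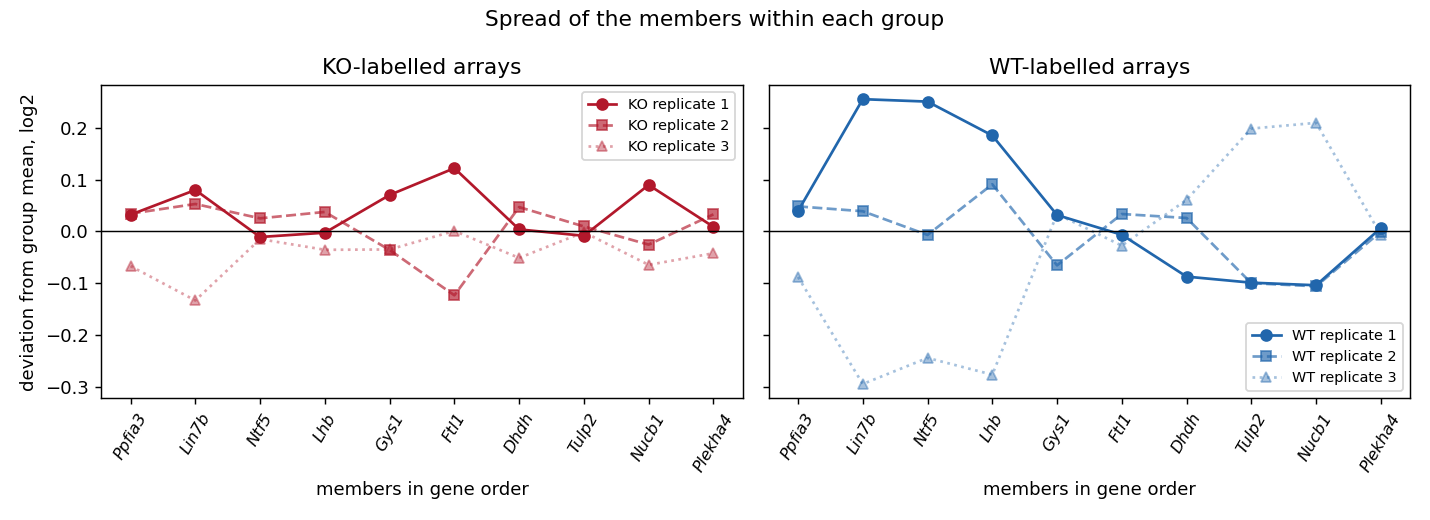
Deviation of each array from its group mean in log2 intensity (vertical axis) for the members in gene order (horizontal axis), KO-labelled arrays left and WT-labelled arrays right, with lines joining values of 1 array. WT replicate 3 lies below the other WT arrays from Ppfia3 to Lhb and above them from Dhdh to Nucb1. The KO arrays have the smaller SD for 7 of the 10 members, the exceptions being Gys1, Ftl1 and Plekha4.

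With the group means removed, members did not vary as 1 block over the 6 arrays. Of 45 pairs of members, 25 had a Pearson correlation of deviations above 0, with a median of 0.07. Lin7b and Lhb had the highest, 0.94, and Ntf5 and Lhb also reached 0.94. Tulp2 and Nucb1 were at 0.90, and Ppfia3 went most with Lin7b (0.89). Tulp2 and Lhb had the lowest, -0.96, and Tulp2 was also the member with the lowest correlation to Ppfia3 (-0.79), Lin7b (-0.85) and Ntf5 (-0.84). Nucb1 was lowest with Lhb (-0.88) and Dhdh with Ntf5 (-0.77). Gys1 went most with Nucb1 (0.61), Dhdh with Nucb1 (0.59), Plekha4 with Ppfia3 (0.68) and Ftl1 with Gys1 (0.45). The lowest partner was Lhb for Gys1 (-0.24), Plekha4 for Ftl1 and Ftl1 for Plekha4 (-0.29). These values share the same 6 arrays, and WT replicate 3 lay farthest from its group mean for Lin7b, Lhb and Tulp2. The same counts were not made over all gene pairs, so the values are a description.

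The genes whose log2 values over the 6 arrays were most like the mean of the members were Map2k1 on chromosome 9 (Pearson r = 0.9985, difference 0.41), Lix1 on chromosome 17 (0.9984, 0.31) and Ccdc33 on chromosome 9 (0.9978, 0.48). The least alike were Slc12a2 (-0.999, difference -0.85), Car4 (-0.9989, -2.28) and Orm1 (-0.9984, -1.11). The 6 arrays fall into 2 groups and share the contrast that chose the members, and 1293 of 13893 compared genes, 9.31%, had a correlation above 0.9.

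Relatives and partners of the members elsewhere in the genome were taken from a list written by family and pathway. Of 56 with a single-symbol probe set, 48 were tested, and by limma 8 were called higher and 10 lower, against 12.0% and 14.1% of all tested genes. Their median difference was -0.02. Members and relatives are given side by side with no test of the difference between them.

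**Figure D4:**
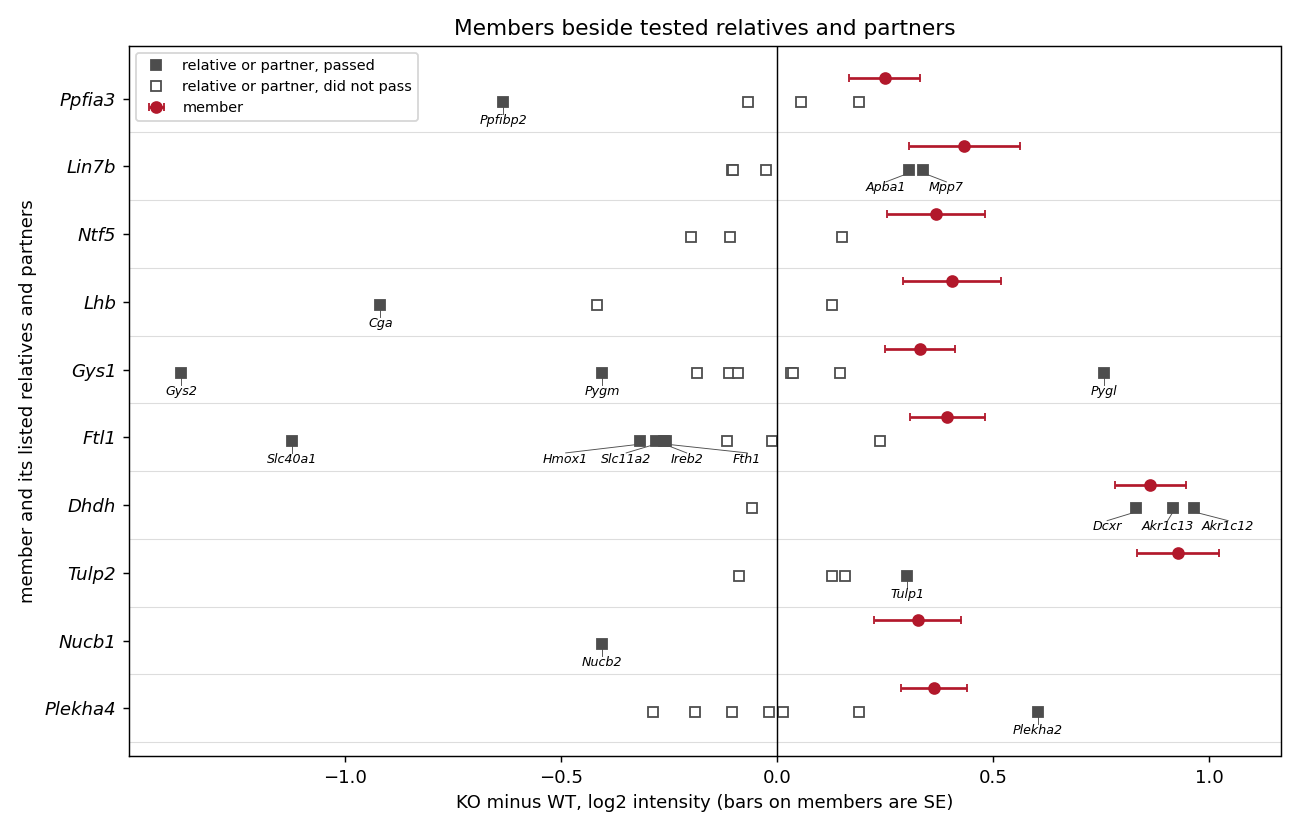
KO minus WT difference in log2 intensity (horizontal axis) of each member (red circles, bars are SE) and of its tested relatives and partners (squares, filled where limma's adjusted p was under 0.05), by member down the page. Cga, Gys2, Fth1 and Nucb2 lie left of 0, opposite Lhb, Gys1, Ftl1 and Nucb1, and Dcxr, Akr1c12 and Akr1c13 lie right of 0 beside Dhdh.

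Among hormone genes, Cga encodes the alpha subunit that pairs with Lhb. Cga read 6.21, 6.17 and 6.11 in KO and 6.93, 7.11 and 7.20 in WT, so every KO array was lower. Its difference was -0.92 (SE 0.09, limma adjusted p = 2.4e-05), beside 0.41 for Lhb. Fshb and Tshb, the beta subunits of the other pituitary glycoprotein hormones, were dim, and Gpha2 and Gphb5 did not pass.

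In glycogen metabolism 1 of 9 tested genes was higher and 2 were lower, against 12.0% and 14.1% of all tested genes. Gys2, the liver glycogen synthase gene, averaged 5.03 ± 0.07 in KO and 6.41 ± 0.49 in WT (SD, n = 3 each), a difference of -1.38 (limma adjusted p = 0.00026), and its KO arrays lay under the filter for dim genes. Gys1 stood at 0.33. The phosphorylases, which break glycogen down, split: Pygl, of liver, was higher by 0.76 (limma adjusted p = 0.00013) and Pygm, of muscle, lower, at -0.40 (limma adjusted p = 0.0038).

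In the iron list 5 of 8 tested genes were lower and 0 higher, against 14.1% and 12.0% of all tested genes. Ftl1 stood at 0.39. The heavy chain gene Fth1, whose product assembles with the light chain, averaged 12.15 ± 0.05 in KO and 12.41 ± 0.11 in WT (SD, n = 3 each), a difference of -0.26 (limma adjusted p = 0.047). Slc40a1, the iron exporter ferroportin, fell the most, at -1.12 (limma adjusted p = 0.00023). Its 3 KO arrays lay under the filter for dim genes and its 3 WT arrays above it, so it was tested through the WT group alone. Slc11a2 (-0.28), Ireb2 (-0.26) and Hmox1 (-0.32) were also lower. With single arrays left out, Fth1 kept its call only without WT replicate 1, Slc11a2 only without KO replicate 3, Ireb2 only without WT replicate 2 and Hmox1 only without WT replicate 1 or 2. Slc40a1 alone of the 5 was still called with arrays centred on the median, and also with the replicate number as a block. Tfrc, the transferrin receptor, was at -0.01.

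Among oxidoreductases listed with Dhdh, 3 of 4 tested genes were higher, against 12.0% of all tested genes. Dcxr, another dicarbonyl and sugar reductase gene, averaged 10.04 ± 0.13 in KO and 9.21 ± 0.04 in WT (SD, n = 3 each), a difference of 0.83 (limma adjusted p = 4e-05). Akr1c12 was higher by 0.97 (limma adjusted p = 0.001) and Akr1c13 by 0.92 (limma adjusted p = 0.00048). The last 2 are close copies of each other, and signal shared between them was not tested. Akr1a1 did not pass, at -0.06. Akr1c14 was too dim to test and went the other way, at -0.41, with every KO array below every WT array.

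Nucb2, the only other nucleobindin gene listed, averaged 7.86 ± 0.17 in KO and 8.27 ± 0.18 in WT (SD, n = 3 each), a difference of -0.40 (limma adjusted p = 0.024), beside 0.33 for Nucb1. The call was lost without KO replicate 1, KO replicate 3 or WT replicate 3. Of the tubby family, Tulp1, known from photoreceptors, was higher by 0.30 (limma adjusted p = 0.021), a call lost without KO replicate 1 or 2, and Tub, Tulp3 and Tulp4 did not pass. Plekha2 was higher by 0.60 (limma adjusted p = 0.00024), while Plekha5 was at -0.02 and the other 5 listed members of that family did not pass.

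For the synaptic members, Ppfia4 was at 0.19 (limma adjusted p = 0.09), Ppfia1 at -0.07 and Ppfibp2, a liprin-beta gene, lower at -0.63 (limma adjusted p = 0.0013). Lin7c, a paralogue of Lin7b, was at -0.10 (limma adjusted p = 0.39), and Cask, which binds Lin7 proteins, at -0.03. Mpp7, another binding partner, was higher by 0.34 (limma adjusted p = 0.016), a call lost without KO replicate 2, and Apba1 by 0.31 (limma adjusted p = 0.033), a call held only without WT replicate 3. For Ntf5, its receptor gene Ntrk2 was dim, and Bdnf, which encodes another TrkB ligand, was at 0.15 (limma adjusted p = 0.34).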

How the data were processed

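RNA of sorted MECs from each mouse was hybridised to a whole-transcript mouse array (Mouse Gene 1.0 ST in the platform annotation). The authors deposited linear probe set intensity values made with RMA, per the submitters' processing notes, which subtracts background, equalises the arrays' distributions and compresses the folds of dim genes. A genome build is not given in the sources used here. Of 35512 probe sets, 21789 carried 1 symbol, and the brightest per gene stood for it (19938 genes). Values were log2 transformed with a pseudocount of 0. Genes above 5.97, the 40th percentile, on at least 3 arrays were tested (13925) with limma 3.58.1 in R 4.3.3 (lmFit, eBayes, two-sided, genotype alone, Benjamini-Hochberg at 0.05). Printed SDs are between mice and SEs are from that fit. RMA values carry no detection call, and 3 mice per group limit the precision. The fit was tested on simulated data.

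The members and lists were chosen with earlier results of these data known. Named genes are all members, every measured gene of the stretch, called flank genes, relatives that were called with the nearest paralogues, and the 3 genes most and least like the members' mean. Neighbouring genes were ordered by the RefSeq gene table of GRCm38.p6. The labels give no batch. Same-numbered KO and WT arrays did not vary together (correlations of deviations -0.02, -0.21 and -0.06). With 3 arrays per group this cannot exclude that same-numbered arrays were handled together. Replicate numbers are used here to name arrays, and the main fit does not pair them. Alternatives covered the filter, normalization, offset, probe set rule, variance model, array weights, replicate block and each array left out.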

Additional observations from a re-analysis of the deposited data

How the results depend on the processing

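No difference of a called member, neighbour or relative changed sign under any alternative run. Leaving out 1 array at a time gave 1052 to 1547 genes called higher (1676 with all 6 arrays, and 1052 without KO replicate 1), 1364 to 1877 called lower (1963), 4 to 8 members called higher (10), and 5 to 9 relatives and partners called higher (8) and 5 to 8 lower (10), with fewer arrays in each fit. The median difference of the members was 0.36 to 0.44 in those fits and 0.32 with an offset of 32. With the filter at the 60th percentile fewer genes were tested. Ppfia3, Lin7b and Ntf5 fell under it and were not tested, and the other 7 members were all called. Of the relatives, Ppfibp2, Cga, Gys2 and Slc40a1 fell under it as well, and 6 were called lower. Ppfia3 was tested but lost its call with no filter, with the offset and with trended robust variances. Each left 9 members called, and the cause was not tested. With the replicate number as a block, 8 members were called (not Ppfia3 and Nucb1), their median difference was 0.38, and 1368 genes were called higher and 1742 lower. Centring, quantile normalization again, array weights and averaging over probe sets each left 10 members called. Centring and the block each left 7 relatives called lower, without Fth1, Slc11a2, Ireb2 and Hmox1, and without the Snrnp70 call. The offset lowered the difference of every member, with Dhdh at 0.78, Tulp2 at 0.80 and Plekha4 at 0.31. Ppfia3 went from 0.25 to 0.19 and Ntf5 from 0.37 to 0.29. Low signal over background limits the dimmest members, Ppfia3 and Ntf5, for which RMA compresses differences.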
